A study of Mus musculus with 2 samples.

Results

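Cardiac muscle cells of the E9.5 mouse embryo were taken from 2 single-cell RNA libraries of the cardiac neural crest region by their own transcripts. A cell was counted as a cardiac muscle cell if it held at least 20 unique molecular identifiers (UMIs, each standing for 1 captured RNA molecule) summed over Myl7, Myl4, Actc1 and Tnnt2, with under 5% of its UMIs from the globin genes Hba-x, Hbb-y, Hbb-bh1, Hba-a1 and Hba-a2. This gave 978 of 21723 cells, 627 of them in the WT library and 351 in the KO library. The cells were thus chosen by the measured UMIs of these 4 genes and of the globins, so the levels of the 4 rule genes and every contrast of these cells with the rest of a library are given as descriptions.

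Embryos of the WT library were Prdm6+/+; Wnt1-Cre2; ZsGreen1, those of the KO library were Prdm6f/f; Wnt1-Cre2; ZsGreen1, and both were of strain C57BL/6 at E9.5. The Wnt1-Cre2 driver and the ZsGreen1 reporter were thus shared by both groups, and the genotypes differed by the floxed Prdm6 alleles. Genotype cannot be told apart from library here, and the study's methods report batch effects seen between its conditions. The libraries also differed in transcripts that differ by sex, as given below. Per the study's methods, samples were pooled and told apart with MULTI-Seq barcodes, no sort was described, and cells were not assigned to embryos in this work, so each genotype was represented by 1 library and no test between genotypes could be made. The tissue is labelled as cardiac neural crest cells, but it was dissected as a block, and reads of ZsGreen1 were not in the table of genes, so cells of the Wnt1 lineage could not be picked out among the cardiac muscle cells. In all, 11958 WT cells carried 20781384 UMIs, 9765 KO cells carried 18936857, and 26 cell barcodes occurred in both.

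Cardiac muscle is the earliest working tissue of the embryo, and at this stage the looped heart tube is already beating. Its cells build sarcomeres, in which thick filaments of myosin slide along thin filaments of actin under the control of troponin and tropomyosin, held in register by titin and the Z disc. Most heart muscle arises from mesoderm of the first and second heart fields, while the neural crest is best known for its part in septating the outflow tract. Wnt1-Cre2 acts in the Wnt1 lineage, which includes the neural crest. How many of these cardiac muscle cells belonged to that lineage was not measured here, and a ratio of KO over WT compares 2 libraries of pooled embryos.

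The 4 genes of the rule encode proteins of the sarcomere: Myl7 is the atrial regulatory light chain of myosin, which the early heart tube expresses throughout, Myl4 the atrial essential light chain, Actc1 the cardiac alpha-actin and Tnnt2 the cardiac troponin T. Since these 4 genes define the class, their start regions were searched for 2 motifs of cardiac regulators, the CArG box bound by serum response factor and the letters GATAA, read on either strand, which are the core of GATA factor sites. Windows ran from 250 bases before to 50 bases after the RefSeq start site (GRCm38.p6). The windows that held a match are shown 5′ to 3′ on the strand of the gene, with the matches in capitals; TTATC is GATAA on the other strand.
Myl7, chr11:5898733-5899032, minus strand: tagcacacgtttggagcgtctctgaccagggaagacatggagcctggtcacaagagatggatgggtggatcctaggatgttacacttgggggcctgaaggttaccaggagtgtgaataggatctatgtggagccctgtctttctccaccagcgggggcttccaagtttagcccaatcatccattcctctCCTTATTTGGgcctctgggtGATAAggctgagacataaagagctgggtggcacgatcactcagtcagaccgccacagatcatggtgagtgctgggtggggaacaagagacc
Actc1, chr2:114052826-114053125, minus strand: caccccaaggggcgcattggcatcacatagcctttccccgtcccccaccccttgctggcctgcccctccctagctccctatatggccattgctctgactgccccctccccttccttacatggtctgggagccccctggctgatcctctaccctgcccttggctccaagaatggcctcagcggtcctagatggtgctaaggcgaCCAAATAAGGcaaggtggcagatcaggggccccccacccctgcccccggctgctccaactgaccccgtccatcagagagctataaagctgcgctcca
Tnnt2, chr1:135836084-135836383, plus strand: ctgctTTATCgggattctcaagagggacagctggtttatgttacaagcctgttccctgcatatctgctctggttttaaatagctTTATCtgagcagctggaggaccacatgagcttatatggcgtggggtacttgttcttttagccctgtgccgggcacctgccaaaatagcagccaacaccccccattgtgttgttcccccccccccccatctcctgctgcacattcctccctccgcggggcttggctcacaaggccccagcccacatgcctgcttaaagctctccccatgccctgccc
A CArG box lay at -61 to -52 in Myl7 and at -47 to -38 in Actc1, counted from the start site. GATAA was found at -41 to -37 in Myl7 and, starting at -245 and at -166, in the first of the pair of Tnnt2 windows. The Myl4 window and the second Tnnt2 window held neither. Over all 32851 RefSeq windows, 1.63% held a CArG box and 25.4% held GATAA. These matches describe letters in the windows and are not shown to be bound.

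The limit of 20 UMIs did not fall in a gap. Cells with globin under 5% of their UMIs mostly held 0 to 4 UMIs of the 4 genes. Per UMI of width, the number of WT cells was 18 at 10 to 14 UMIs, 9.4 at 15 to 19, 8.6 at 20 to 24, 7.0 at 25 to 39, 8.3 at 40 to 79 and 1.79 in the next 80, and in KO it was 10, 7.4, 3.4, 3.93, 4.2 and 1.15. The numbers were thus nearly flat between 15 and 79 UMIs (WT) and between 20 and 79 (KO). Next to the limit, 47 WT and 37 KO cells held 15 to 19 UMIs and 43 WT and 17 KO cells held 20 to 24. The 3 cells of the WT library and 1 of the KO library that passed the marker minimum but not the globin limit were left out.

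**Figure D1:**
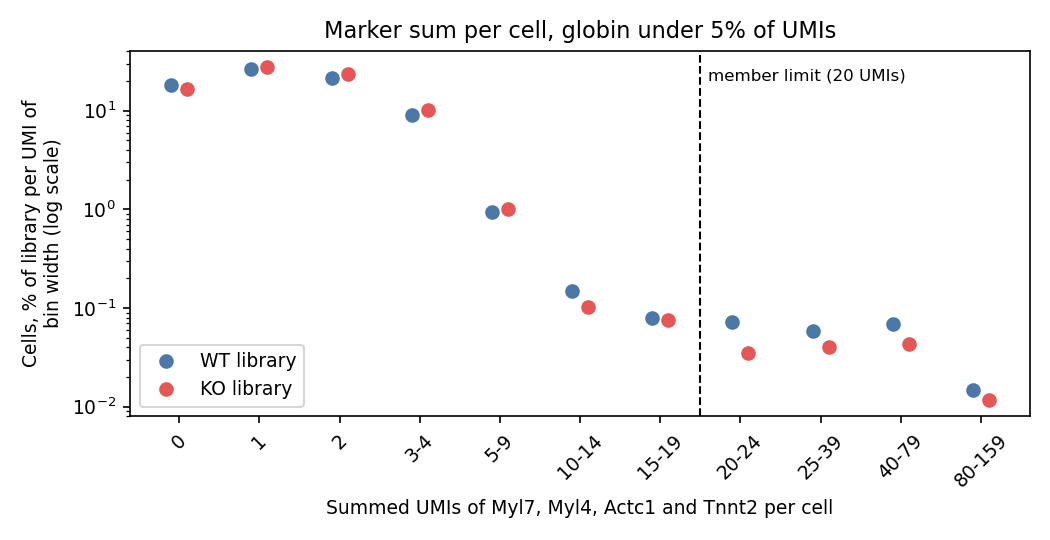
Share of each library's cells per UMI of bin width (y axis, log scale) by the summed UMIs of the 4 rule genes in the cell (x axis, bins), for cells with globin under 5% of their UMIs; the dashed line marks the limit of 20 UMIs. Both libraries drop steeply from 2 to 14 UMIs and less so above, with no gap at the limit; 15 KO and 4 WT cells with 160 UMIs or more are not drawn.

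Genes that the rule did not read carried the same identity. The summed level of 8 other cardiac muscle genes (Tnni1, Tnnc1, Ttn, Myh6, Myh7, Actn2, Nkx2-5 and Ryr2) was 9487 UMIs per 1000000 UMIs (CPM) in the WT and 9840 CPM in the KO cardiac muscle cells. At least 3 UMIs of these genes were present in 99.5% of the WT and 99.4% of the KO cells. The sum fell off across the limit rather than at it: it was 4940 CPM in WT and 4462 CPM in KO cells with 20 to 24 rule-gene UMIs, 4103 and 2731 CPM with 15 to 19, and 1076 and 932 CPM with 5 to 14. Some cells just under the limit thus carried cardiac transcripts too.

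The cells were deeper than their neighbours, and more so in the KO library. The median cell had 2372 UMIs from 1500 genes in WT and 3123 UMIs from 1783 genes in KO, against 1562 and 1666.5 UMIs in all other cells. The ratio of KO over WT median depth was 1.32 among cardiac muscle cells and 1.07 among all other cells. As a background, in red blood cells, taken as cells with at least 5% globin, the median was 1 rule-gene UMI in WT and 2 in KO. All intervals below are exact 95% intervals (Poisson for a level, conditional binomial for a ratio, Clopper-Pearson for a share). They cover counting error only and hold no variation among embryos or libraries.

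Summed by list, markers of most other lineages were below their level in all other cells of the same library, by margins that differed. The endothelial list stood at 118 (WT) and 122 CPM (KO), against 447 and 399.8 CPM elsewhere, the neural crest list at 99.0 and 86.5 against 310.3 and 319, and the endoderm list at 39.1 and 36.7 against 213 and 160. The neural tube list, at 339 and 291 against 623 and 608, the surface ectoderm list, at 199.9 and 150.4 against 262 and 241, and the epicardial list, at 51.4 and 41.4 against 65.1 and 43.8, were closer to the rest. The skeletal muscle list was above the rest, at 756 and 915 against 173 and 134 CPM, and Myl1, which the early heart also expresses, held 93.8% of its UMIs. The part of these transcripts in the ratios below was not tested. Of 5 macrophage genes measured, 4 had 0 UMIs in all cardiac muscle cells and Fcer1g had 1. Sox10, a defining gene of migrating neural crest, had 13 UMIs in WT and 11 in KO, or 8.46 and 10.3 CPM, below the level in all other cells of either library (65.5 and 61.3 CPM). The endothelial Cdh5 had 12 and 10 UMIs, the epicardial Wt1 15 and 13. Smooth muscle genes, many of which the early heart is known to express, were also above the rest: Acta2 stood at 2985 CPM in WT and 2535 in KO, Myl9 at 1890 and 1637, Tagln at 746 and 792, and Cnn1 at 151 and 198, each far above its level in all other cells (215 and 181 CPM for Acta2, 58.7 and 54.6 for Tagln). The later smooth muscle myosin Myh11 had 9 and 4 UMIs, and the enteric actin Actg2 12 and 17.

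**Figure D2:**
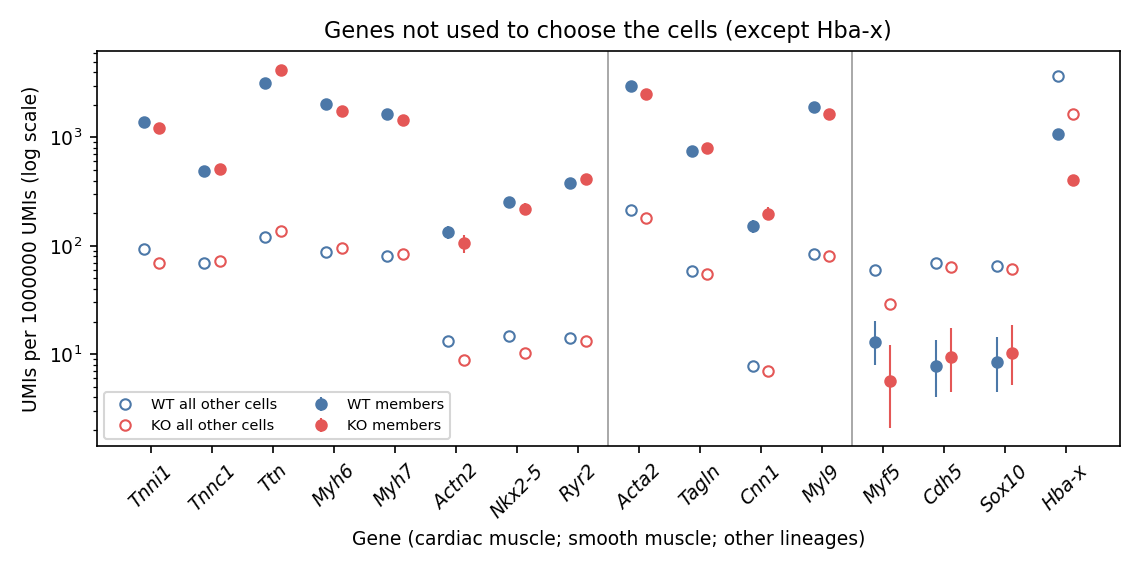
Levels (y axis, CPM, log scale) of cardiac muscle, smooth muscle and other-lineage genes in the cardiac muscle cells (filled, with exact Poisson 95% intervals) and in all other cells (open) of the WT and KO library. The 8 cardiac genes and 4 smooth muscle genes are far higher in the cardiac muscle cells, whereas Myf5, Cdh5 and Sox10 are lower there. Hba-x is among the globins of the rule, whose limit left out 3 WT cells and 1 KO cell.

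A small skeletal muscle element was mixed in. In 20 WT and 4 KO cells, Myl7 made up under 10% of the 4-gene sum. The 20 WT cells together held 7 UMIs of Myog and 11 of Myf5, factors of skeletal myogenesis, and 15 of Myh3, the embryonic skeletal myosin, but these factors came from 3 of the 20 cells. The 4 KO cells held 0 UMIs of Myog, Myf5, Myf6 and Myh3. Such UMIs were not limited to cells with little Myl7: the other 607 WT cells held 9 UMIs of Myf5 and 11 of Myh3, and the other 347 KO cells 6 of Myf5, 2 of Myf6 and 5 of Myh3, with a myogenic factor in 7 and 6 cells. The 20 WT cells also held 22 UMIs of Ryr2 and 14 of Nkx2-5, a gene of cardiac identity. For the 30 gene lists with at least 50 UMIs, leaving out the cells with little Myl7 kept each log2 ratio of KO over WT within its counting interval.

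Of the 6964 genes with at least 50 UMIs in the cardiac muscle cells, 452 (6.49%) stood at least 2-fold above all other cells in both libraries, with 10 CPM added to each side. Ankrd1, a stretch-responsive cofactor bound to titin, headed the list at 2285 CPM in WT and 2985 in KO against 39.5 and 38.7 CPM elsewhere, a fold of 46.4 in the library where it was lower. Smpx, a small cytoskeletal protein of striated muscle, followed with a fold of 35.2, and then Myl4 (29.7), the lncRNA gene 5430431A17Rik (28.4), the giant sarcomeric spring Ttn (24.4) and Myl7 (24). Cacna2d2, a calcium channel subunit (21.2), Cox6a2, a cytochrome c oxidase subunit restricted to striated muscle (19.6), Sh3bgr (19.4), the light chain Myl1 (19.2), the chaperone Cryab (18.9) and Nexn, a Z disc protein (18.6), completed the first 12. Among the 322 of these 452 genes that had a RefSeq window, 7.14% carried a CArG box and 28.9% carried GATAA, beside 2.02% and 18.2% of the 5534 matched genes with at least 50 UMIs.

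Cardiac muscle cells were a smaller share of the KO library. They made up 5.24% of cells in WT (4.85 to 5.66) and 3.59% in KO (3.23 to 3.98), a log2 ratio of KO over WT of -0.54 (-0.74 to -0.35), or 1.46-fold fewer in KO. After every cell was thinned to 1500 UMIs, the shares among the cells deep enough were 7.94% and 4.86%. With 1 dissection pool per genotype, a difference in the number of heart cells cannot be told apart from a difference in how much heart each block of tissue held. The ratio of these shares kept its direction when the marker minimum was 10 or 40 UMIs and when any 1 of the 4 genes was dropped from the rule.

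Within the cardiac muscle cells, few genes differed widely between the libraries. The median log2 ratio of KO over WT over the 6964 genes was -0.06, and it was -0.04 in all other cells. A ratio of at least 2-fold was reached by 11 genes higher in KO (0.158%) and 60 genes lower in KO (0.862%), 71 in all (1.02%). Over the same 6964 genes, the counting interval of the ratio lay above 0 for 8.17% and below 0 for 10.8%, the background for the counts by list that follow. This split at 2-fold depended on scaling: with the TMM factor, 24 genes were higher and 35 lower, and with the median of ratios 24 and 36, as these factors raised every KO ratio by 0.06 on the log2 scale. A single-gene interval that ended less than 0.06 below 0 thus came to hold 0 with the TMM factor, as for Jph2 and Col3a1 below. An interval that held 0 could likewise move above it. Of the 71 genes, 68 had the same sign in all other cells and 5 passed 2-fold there as well. For 46, the counting interval of the difference from the ratio in all other cells did not hold 0. The 71 were chosen by that same ratio in cardiac muscle cells, so the 46 are a description, with no share over all genes beside them. Opposite signs in the 2 sets of cells, with both intervals off 0, were found for 56 of all 6964 genes (0.804%) and for 11 of the 335 genes of the lists and named genes (3.28%). The 335 include genes chosen for their level or ratio, so these shares are not directly comparable.

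The rule genes themselves were balanced differently in the libraries. Myl7 stood at 7366 CPM in WT and 8956 in KO (log2 ratio 0.28, 0.24 to 0.32), with a median of 14 UMIs per cell in WT and 20 in KO. Myl4 stood at 8279 and 6546 CPM (-0.34, -0.38 to -0.30), Actc1 at 7236 and 5571 (-0.38, -0.42 to -0.33) and Tnnt2 at 2364 and 2219 (-0.09, -0.17 to -0.02). Myl7 thus took a median of 25.9% of the 4-gene sum of a cell in WT and 34.7% in KO, while Myl4 took 34.6% and 30.6% and Actc1 27.3% and 22.6%. The highest Myl7 count in a cell was 91 UMIs in WT and 192 in KO. Without the 10% of cells with most UMIs, the ratios were 0.19 for Myl7, -0.50 for Actc1 and -0.19 for Tnnt2. In all other cells, where these UMIs are few, Myl4 and Actc1 were also lower in KO, at -0.33 and -0.22, whereas Tnnt2 was higher, at 0.14.

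The thick filament genes differed in direction. Their summed level was 5769 CPM in WT and 5193 in KO (-0.15, -0.20 to -0.10, and -0.089 with the TMM factor), but within 3 bands of cells by marker share, described further on, the interval of the sum held 0 in the lowest and the highest band. Of these, 3 of the 6 genes with at least 50 UMIs had an interval below 0 and 1 above, beside 10.8% and 8.17% of all genes. Myh6, the alpha myosin heavy chain, stood at 2015 and 1751 CPM (-0.20), Myh7, the beta heavy chain, at 1636 and 1445 (-0.18) and the ventricular essential light chain Myl3 at 775 and 607 (-0.35). Without cells holding at least 3 UMIs of other lineages, the erythroid list and Myl1 not counted, Myh7 was at -0.086. Myl2, the ventricular regulatory light chain, stood at 884 and 971 CPM (0.14, 0.02 to 0.25), but it was at -0.30 (-0.54 to -0.06) in the lowest band, and 5 cells held 7.36% of its UMIs in WT and 16.3% in KO. Mybpc3, the myosin binding protein of heart, stood at 381 and 343 CPM, with an interval that held 0. The sum of the list was slightly higher in KO in all other cells (0.12).

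Among thin filament genes, Tpm1 carried the difference. Tpm1, the main tropomyosin of heart, stood at 4284 CPM in WT and 5138 in KO (0.26, 0.21 to 0.31) and held 54.0% of the UMIs of its list. The troponin I genes were level or lower, with Tnni1, the fetal form, at 1383 and 1219 CPM (-0.18) and Tnni3, the adult cardiac form, at 391 and 372 (-0.07, -0.26 to 0.11). Tnnc1, troponin C, stood at 490 and 512 CPM. The skeletal alpha-actin Acta1, which the early heart coexpresses, was at 513 and 434 CPM (-0.24, -0.41 to -0.07). Over the 10 genes, the summed level was higher in KO (0.11) but the median gene was lower (-0.10), because of the weight of Tpm1.

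Titin and several of its partners were higher in KO. Ttn stood at 3195 CPM in WT and 4177 in KO (0.39, 0.33 to 0.45). Ankrd1 had the same ratio (0.39, 0.32 to 0.46), which was 0.17 without the 10% of cells with most UMIs, Nexn was at 1343 and 1905 CPM (0.50, 0.41 to 0.59), Smpx at 998 and 1135 (0.18) and Cryab at 644 and 752 (0.22). These 5 genes were the members of the list of 19 with an interval above 0, beside 8.17% of all genes. Synpo2l, a Z disc actin-binding protein, at 191 and 133 CPM (-0.52, -0.82 to -0.23), Actn2, the alpha-actinin of the Z disc, at 133 and 105 (-0.34) and Des, the muscle intermediate filament, at 324 and 271 (-0.26, and -0.52 with cells thinned to 1500 UMIs) had an interval below 0. The sum of the list was 11443 CPM in WT and 13811 in KO (0.27, 0.24 to 0.30), whereas the median gene stood at 0.03, so the summed difference came from the abundant members. Elsewhere in the libraries the sum was at 0.01.

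The proteins that handle calcium showed no common direction. Atp2a2, the pump that returns calcium to the sarcoplasmic reticulum, stood at 977 CPM in WT and 763 in KO (-0.36, -0.48 to -0.23), and Jph2, which ties that membrane to the cell surface, at 54.7 and 35.7 (-0.61, -1.21 to -0.05). Slc8a1, the sodium-calcium exchanger that the early heart depends on, was at 55.3 and 108 CPM (0.97, 0.55 to 1.39), and Trdn, triadin, at 133 and 178 (0.41, 0.12 to 0.70, and 0.73 with cells thinned to 1500 UMIs). Ryr2, the calcium release channel, was at 378 and 410 CPM and Pln, the brake on the calcium pump, at 130 and 139, both with intervals that held 0. Of 15 genes with at least 50 UMIs, 2 had an interval above 0 and 2 below, shares near those over all genes (8.17% and 10.8%). The Slc8a1 ratio was nearly as large in all other cells (0.91), at 1.25 and 2.35 CPM.

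Transcription factors of the cardiac program were mostly level. Gata4 stood at 241 and 224 CPM, Gata6 at 378 and 380, Tbx5 at 117 and 132, Tbx20 at 182 and 177, Hand2 at 152 and 147, and the coactivator Myocd at 127 and 129, each with an interval that held 0. Nkx2-5 was at 256 CPM for WT and 220 for KO (-0.22, -0.46 to 0.02). Mef2a at 122 and 181 CPM (0.56, 0.26 to 0.86) and Mef2c at 469 and 560 (0.26, 0.10 to 0.41) had intervals above 0, and Srf at 71.0 and 47.9 (-0.57, -1.08 to -0.07) and the chromatin remodelling subunit Smarcd3 at 157 and 124 (-0.34, -0.66 to -0.03) below 0. With the TMM factor the Smarcd3 interval held 0. The summed level of the regulators was 2733 CPM in WT and 2822 in KO (0.05, -0.02 to 0.11), or 0.11 (0.04 to 0.18) with the TMM factor. In all other cells, where few cells make these factors, the list stood at -0.12 by its sum and -0.26 for its median gene. Among the lower members there were Gata4 (-0.81), Hand1 (-1.03) and Nkx2-5 (-0.50).

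**Figure D3:**
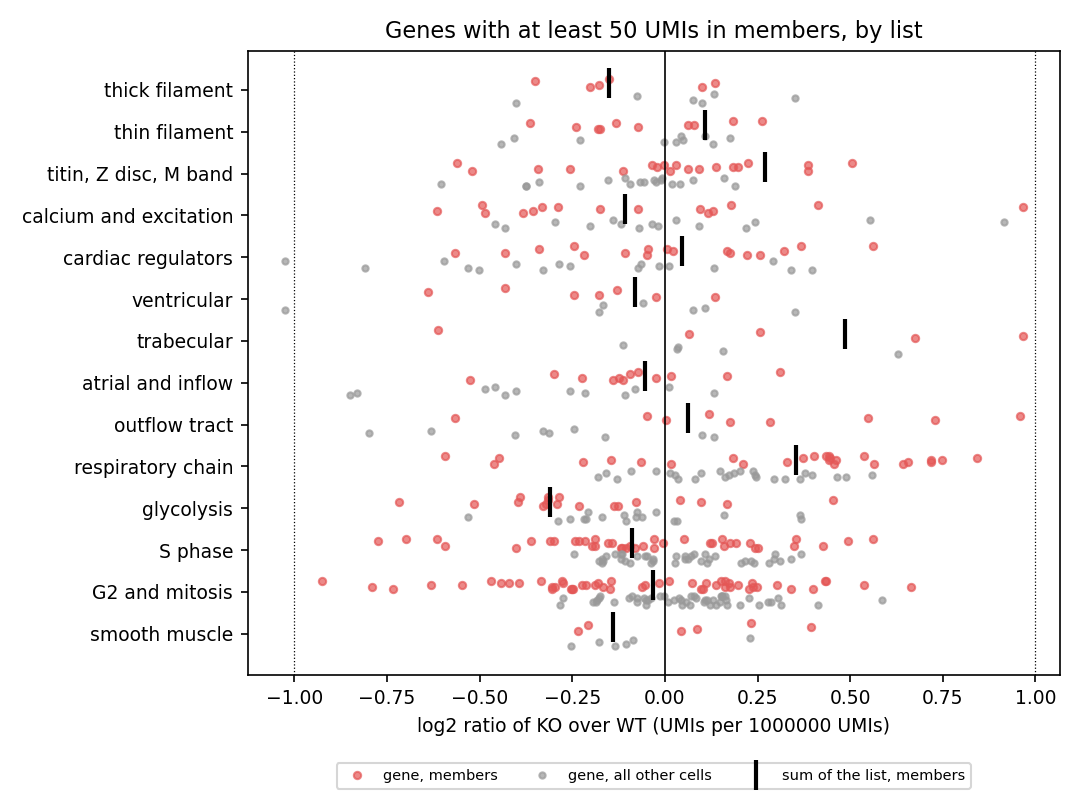
Log2 ratio of KO over WT (x axis, CPM) for each gene with at least 50 UMIs in the cardiac muscle cells, by gene list (y axis): red points, cardiac muscle cells; grey points, all other cells; black bars, the summed UMIs of the list in cardiac muscle cells. Most genes lie within 2-fold (dotted lines), the respiratory chain genes lie mostly to the right of 0 and the glycolysis genes mostly to the left.

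Genes of energy metabolism separated by pathway. Of 26 nuclear genes of the respiratory chain and its partners with at least 50 UMIs, 19 had an interval above 0 and 5 below, beside 8.17% and 10.8% of all genes, with a median log2 ratio of 0.44. Cox7a2 stood at 781 CPM in WT and 1400 in KO (0.84, 0.73 to 0.95), the striated muscle form Cox7a1 at 255 and 429 (0.75, 0.55 to 0.95) and Uqcrh, a subunit of complex III, at 649 and 1066 (0.72, 0.59 to 0.84). Sdha, the flavoprotein of complex II, at 191 and 127 CPM (-0.59, -0.90 to -0.29), and Slc25a4, the muscle ADP/ATP carrier, at 1306 and 949 (-0.46, -0.57 to -0.35) were among the 5. The same list stood at a median of 0.18 in all other cells, so part of the ratio was shared by the whole library.

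Ratios differed by transcript length, without a steady trend. Of the 19 respiratory genes with an interval above 0, 14 had a longest transcript of at most 1000 bases (GENCODE vM21), while each of the 5 with an interval below 0 had a longer one. Genes whose longest transcript was at most 600 bases had a median log2 ratio of 0.41 in cardiac muscle cells and 0.26 in all other cells (55 genes). For the 348 genes of 600 to 1000 bases the medians were 0.18 and 0.09, and for the 2000 genes of 1000 to 2500 bases they were -0.12 and -0.07. Above that the medians were closer to 0 again, at -0.08 and -0.04 for the 3358 genes of 2500 to 6000 bases and -0.01 and -0.0019 for the 1154 longer genes. The part of transcript length in the respiratory chain values was not tested.

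Glycolysis genes were lower in KO. Of 18 genes, 10 had an interval below 0 and 1 above, beside 10.8% and 8.17% of all genes, and the sum was 20443 CPM for WT and 16477 for KO (-0.31, -0.34 to -0.28). Eno1, which makes phosphoenolpyruvate, stood at 2886 and 1755 CPM (-0.72, -0.80 to -0.64), Aldoa, the aldolase of muscle, at 2287 and 1738 (-0.40), Gapdh at 4719 and 3601 (-0.39) and the glucose transporter Slc2a1 at 1059 and 843 (-0.33). Hk2, the insulin-regulated hexokinase, was the member above 0, at 203 and 277 CPM (0.45, 0.22 to 0.69). In all other cells the sum stood at -0.13 and Eno1 at -0.53. The list of fatty acid and creatine handling summed to 795 and 700.4 CPM (-0.18, -0.32 to -0.05, and -0.12, -0.25 to 0.01 with the TMM factor), against 342 and 330.3 CPM elsewhere. Ckb, the brain-type creatine kinase, was at 222 and 169 CPM (-0.39, -0.66 to -0.13), Fabp3, the heart fatty acid binding protein, at 138 and 148 (0.10, -0.21 to 0.40) and Hadha, an enzyme of fatty acid oxidation, at 114 and 110.0 (-0.05, -0.40 to 0.29), while the muscle creatine kinase Ckm had 2 UMIs in WT and 1 in KO and Mb, myoglobin, 7 and 6.

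Cell cycle genes were at a lower level than in all other cells, and mostly level between the libraries. The S phase list summed to 4676 CPM in WT and 4400 in KO, against 6899 and 7089 CPM elsewhere (-0.09, -0.14 to -0.03). With the TMM factor the S phase ratio was -0.025 (-0.078 to 0.028) and with the median of ratios -0.033 (-0.086 to 0.021), both with intervals that held 0. The G2 and mitosis list was at 7986 and 7811 CPM, against 9935 and 10540 CPM elsewhere (-0.03, -0.07 to 0.01), and its sign turned with the TMM factor (0.03) and the median of ratios (0.02). Single genes went further: Cdk1, the mitotic kinase, was at 114 CPM for WT and 65.8 for KO (-0.79, -1.21 to -0.38), Ccnb1, its cyclin partner, at 183 and 110 (-0.73), the kinase Aurkb at 76.8 and 40.4 (-0.93, -1.47 to -0.41), the nucleotide reductase subunit Rrm2 at 320 and 209 (-0.62) and the replication clamp Pcna at 232 and 154 (-0.59). Nusap1 (0.54), Birc5 (0.43), Cks1b (0.40) and Anp32e (0.30) had intervals above 0. Of 51 genes of the G2 and mitosis list, 10 had an interval below 0 and 4 above, and of 40 of the S phase list 5 below and 1 above. Over all genes these shares were 10.8% below and 8.17% above, so the S phase count and the count above 0 of G2 and mitosis genes lay near or under the background. The 10 of 51 G2 and mitosis genes below 0 were a larger share than the 10.8% of all genes. The cell cycle inhibitor Cdkn1c, abundant in these cells, stood at 1609 CPM in both.

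A few chamber genes were found in different shares of the cells with and without Myl2. After each cell was thinned to 1500 UMIs, which left 586 WT and 340 KO cells and left out 41 and 11 shallower cells, a Myl2 UMI was found in 46.9% of WT and 43.5% of KO cells. Among cells with Myl2, Myh7 was found in 81.5% in WT and 79.1% in KO, against 40.8% and 47.9% of cells without it. Nr2f2, a nuclear receptor of atrial identity, showed the converse, with 17.1% and 17.6% of cells with Myl2 and 47.6% and 42.7% of cells without. Its paralog Nr2f1 did likewise (22.9% and 22.3% with Myl2, 41.2% and 42.2% without). These pairs of shares had intervals that did not meet in either library. They were the exceptions: 1 of 6 other ventricular genes and 2 of 12 atrial and inflow genes were apart in both libraries, 3 and 7 were apart in neither, and no gene of the trabecular, atrioventricular canal, outflow or second heart field list was apart in both.

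Other genes sided with Myl2 or against it. Cck, which encodes cholecystokinin and is on none of the gene lists, was found in 10.9% of WT and 14.9% of KO cells with Myl2 and in 2.89% and 2.60% of cells without, again with intervals apart in both. Mpped2 (40.4% against 22.8%), Hand1 (9.82% against 2.89%), Cited1 (11.6% against 3.22%) and Nppb (12.7% against 3.54%) went with Myl2 in WT, and Vsnl1 (1.82% against 14.1%), Hey1 (1.45% against 8.68%), Bmp4 (8.36% against 17.4%) and Sphkap of the trabecular list (8.36% against 16.7%) went against it. For these genes the KO intervals met. A Myl2 UMI without Nr2f2 was found in 38.9% of WT and 35.9% of KO cells, Nr2f2 without Myl2 in 25.3% and 24.1%, both in 8.02% and 7.65% and neither in 27.8% and 32.4%. These classes are set by the detection of sparse UMIs and are not cell types.

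**Figure D4:**
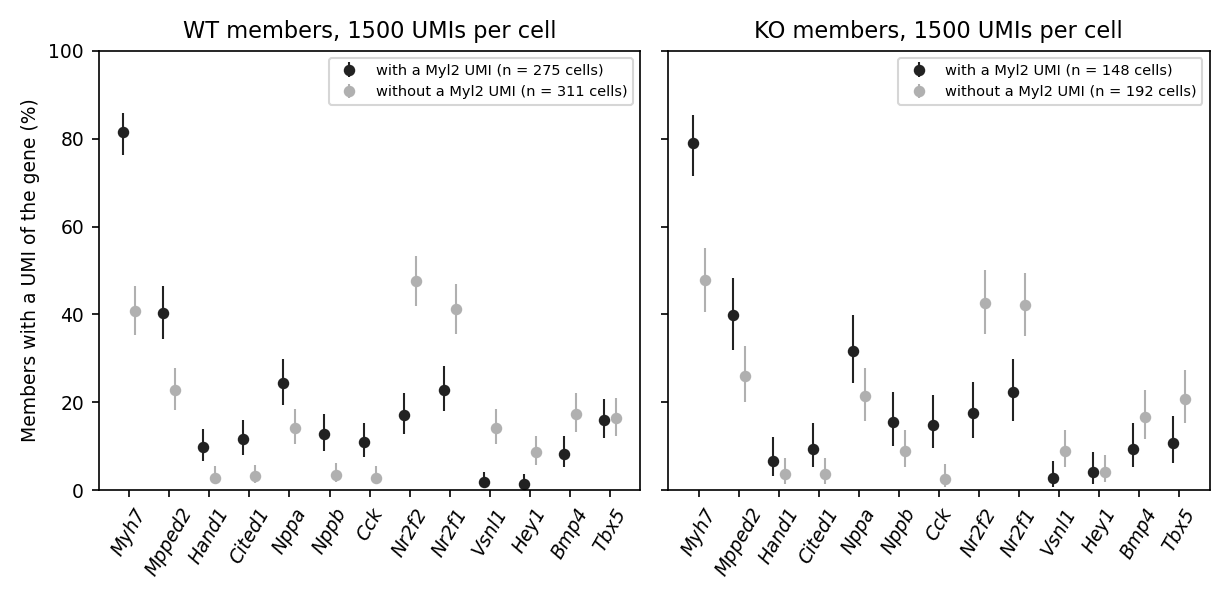
Share of cardiac muscle cells with a UMI of each gene (y axis, %, exact Clopper-Pearson 95% intervals) among cells with (black) and without (grey) a Myl2 UMI, all thinned to 1500 UMIs, in WT (left) and KO (right). Myh7 lies at 81.5% and 79.1% with Myl2, and Nr2f2 at 47.6% and 42.7% without it.

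Detection in other cells sets the background for these shares. Thinned in the same way, a Myl2 UMI was found in 12.3% of WT and 10.0% of KO red blood cells, and in 11.5% and 15.1% of all other cells. Nr2f2 was found in 18.6% and 10.0% of red blood cells and in 50% and 45.1% of all other cells. The 17.1% and 17.6% with Nr2f2 among cells with Myl2 thus lay near the red blood cell share in WT and above it in KO. At their own depth, the median was 2616 UMIs in WT and 3262 in KO with Myl2 and 2276 and 3077 without.

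Chamber lists did not differ much between the libraries. The ventricular list was at 3055 CPM for WT and 2890 for KO (-0.08, -0.15 to -0.01). Its median gene was lower in KO (-0.18), and Myl2 was the member with a ratio above 0. The ratio of the sum was -0.017 (-0.083 to 0.049) with the TMM factor. It was -0.0076 without cells holding at least 3 UMIs of other lineages, the erythroid list and Myl1 not counted. The atrial and inflow list stood at 1215 and 1170 CPM (-0.05, -0.16 to 0.05), where Wnt2 at 69.0 and 47.9 CPM (-0.53, -1.04 to -0.03) was the member with an interval off 0. That interval held 0 with the TMM factor. The atrioventricular canal list stood at 363 and 393 CPM (0.11, -0.07 to 0.30), although its median gene was lower in KO (-0.11). Its member Bmp2, the signal that patterns the canal and cushions, was at 181 and 217 CPM (0.26, 0.00 to 0.52).

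The trabecular list was the chamber list with the largest ratio. It stood at 724 CPM in WT and 1014 in KO (0.49, 0.36 to 0.61), beside 0.09 in all other cells. Nppa, the atrial natriuretic peptide gene that marks working chamber muscle, was at 378 and 604 CPM (0.68, 0.51 to 0.84) and its neighbour Nppb at 88.6 and 173 (0.97, 0.64 to 1.3). Cited1 was at 69.0 and 45.1 CPM (-0.61, -1.14 to -0.11), and Gja5, the fast-conducting connexin of trabeculae, had 28 UMIs in WT and 8 in KO (-1.28). The members of the list thus did not share a direction.

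Few cells carried much of the Nppa difference. A UMI of Nppa was found in 146 of the WT and 120 of the KO cells, and the 5 cells with most held 22.7% of its UMIs in WT and 36.4% in KO, with a highest count of 39 and 98. At least 10 Nppa UMIs were found in 15 WT cells (2.39%, 1.35 to 3.92) and 15 KO cells (4.27%, 2.41 to 6.95). Without these cells, a limit chosen after the values were seen, Nppa stood at 223 CPM in WT and 274 in KO (0.30, 0.06 to 0.53). Nppb stood at 895 and 1081 CPM in the cells rich in Nppa, against 64.4 and 122 CPM in the others, and Cited1 at 514 and 160 CPM against 55.7 and 38.7.

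Genes of the outflow tract and second heart field were thinly detected. Bmp4, which the outflow tract muscle secretes, was at 117 CPM for WT and 118 for KO (0.00, -0.34 to 0.34), and Isl1, the factor of second heart field progenitors, at 30.0 and 33.8 (0.18, -0.49 to 0.84). Sema3c, a guidance cue made by outflow muscle, stood at 48.8 and 71.4 CPM (0.55, 0.07 to 1.03) and Tdgf1, a Nodal coreceptor, at 18.9 and 36.7 (0.96, 0.23 to 1.70). For Tdgf1, 5 cells held 37.9% (WT) and 41.0% (KO) of the UMIs, and after thinning to 1500 UMIs it was found in 2.90% and 2.65% of cells. Bambi, a decoy BMP receptor, was at 171 and 116 CPM (-0.57, -0.89 to -0.25). The outflow list as a whole was at 766 and 799 CPM (0.06, -0.07 to 0.19) and at -0.29 in all other cells. Fgf8 had 15 UMIs in WT and 2 in KO, and Foxf1 15 and 3, counts on which no ratio is read.

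Thinned to 1500 UMIs, 20 WT and 14 KO cells held an Isl1 UMI. These were 3.41% and 4.12% of the cells, below the 4.53% and 5.25% found in all other cells, so they are not set apart as a class. In WT, a UMI of Nrp2 was found in 50% of them against 8.83% of cells without Isl1, of Bmp4 in 45% against 12%, of Sema3c in 30.0% against 6.36% and of Hand2 in 45% against 19.1%, while Myh6 was found in 45% against 80.4%. The WT intervals did not meet for these 5 genes, which were named from a larger set of genes compared. In KO the shares were 21.4% against 8.28% for Nrp2, 21.4% against 13.2% for Bmp4 and 57.1% against 78.8% for Myh6, with intervals that met. The median share of UMIs in the 4 rule genes was 1.44% in WT and 1.53% in KO cells with Isl1, against 2.47% and 2.07% of those without.

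Signals between heart muscle and its lining were close to level. The BMP list stood at 2153 CPM in WT and 2245 in KO (0.06, -0.02 to 0.14, and 0.12, 0.05 to 0.20 with the TMM factor), with its median gene at -0.11. Id2, a BMP target, was at 951 and 1053 CPM (0.15, 0.03 to 0.26) and Smad6, an inhibitor, at 69.0 and 48.9 (-0.50, -1.01 to -0.01). The Smad6 interval held 0 with the TMM factor. Of the Notch and neuregulin list, Notch2 was at 238 and 179 CPM (-0.41, -0.67 to -0.16), Hes1 at 56.0 and 82.7 (0.56, 0.12 to 1.01) and Erbb4, the neuregulin receptor that trabeculation needs, at 59.3 and 86.5 (0.55, 0.11 to 0.98). The list as a whole was at -0.02 in cardiac muscle cells (median gene 0.08) and at -0.38 in all other cells.

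The matrix list summed to 2536 CPM in WT and 2508 in KO (-0.02, -0.09 to 0.06), but its genes differed. Vcan, the versican of cardiac jelly, was at 535 and 635 CPM (0.25, 0.10 to 0.40), and Col1a1 at 50.8 and 78 (0.62, 0.16 to 1.08), whereas in all other cells Col1a1 was lower in KO (-0.91). Within the bands by marker share its ratio was 0.37, 0.47 and 0.06, each with an interval that held 0, and 5 cells held 32.1% of its UMIs in WT and 33.7% in KO. Fbln1 stood at 115 and 64.9 CPM (-0.82, -1.24 to -0.41) and Col3a1 at 68.4 and 47.9 (-0.51, -1.02 to -0.02). Postn had 26 UMIs in WT and 2 in KO, with 38.5% of the WT UMIs in 5 cells. Type I collagen lay mostly in the cells poorest in cardiac transcripts, as described next.

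To see how the cells varied, they were divided into 3 bands by the share of their UMIs in the 4 rule genes, with limits of 1.92% and 2.74% set over both libraries. The bands rest on the values that chose the cells, so levels and counts of genes along them, and ratios within them, are descriptions. The WT cells fell 28.7%, 33.3% and 38.0% into the lowest, middle and highest band, and the KO cells 41.6%, 33.3% and 25.1%. From the lowest to the highest band, 4 of 7 thick filament genes and 9 of 20 titin and Z disc genes with at least 20 UMIs were higher in both libraries with counting intervals off 0, and 0 were lower, beside 1.96% higher and 1.77% lower of all 9523 genes. Among them were Myh6, at 1201, 2094 and 2573 CPM in WT and 1282, 1973 and 2215 in KO, and, of the thin filament, Tnni3, at 234, 381 and 522 in WT and 192, 384 and 642 in KO. Of the respiratory chain genes, 19 of 26 were higher by the same measure and 0 were lower. The bands are ranges along a measure and not cell types, and depth barely differed between them, with medians of 2411, 2360 and 2363 UMIs in WT and 3074, 3053 and 3254 in KO.

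Single genes were lower in the highest band in both libraries, but most genes of the early and cell cycle lists were called in neither direction. The number lower was 3 of 10 for the outflow list (1 was higher), 0 of 10 for the second heart field, 2 of 43 for S phase and 2 of 51 for G2 and mitosis. Nrp2 was at 187, 95.2 and 56.6 CPM in WT and 244, 66.4 and 32.3 in KO, and Bmp4 at 192, 75.4 and 96.1 in WT and 201, 57.8 and 60.9 in KO. Hand1, a factor of the outer curvature of the tube, was at 73.5 CPM in the lowest and 27.4 in the highest band in WT and at 66.1 and 3.58 in KO, and the D-type cyclin Ccnd2 at 1727 and 830 in WT and 1571 and 799 in KO. Col1a1 stood at 100, 41.7 and 20.6 CPM in WT and at 130, 57.8 and 21.5 in KO. The S phase sum was 5162 CPM in the lowest and 4236 in the highest band in WT, and 5017 and 3638 in KO. Myocd was at 165 and 153 CPM in the lowest band and 94.4 and 89.6 in the highest.

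**Figure D5:**
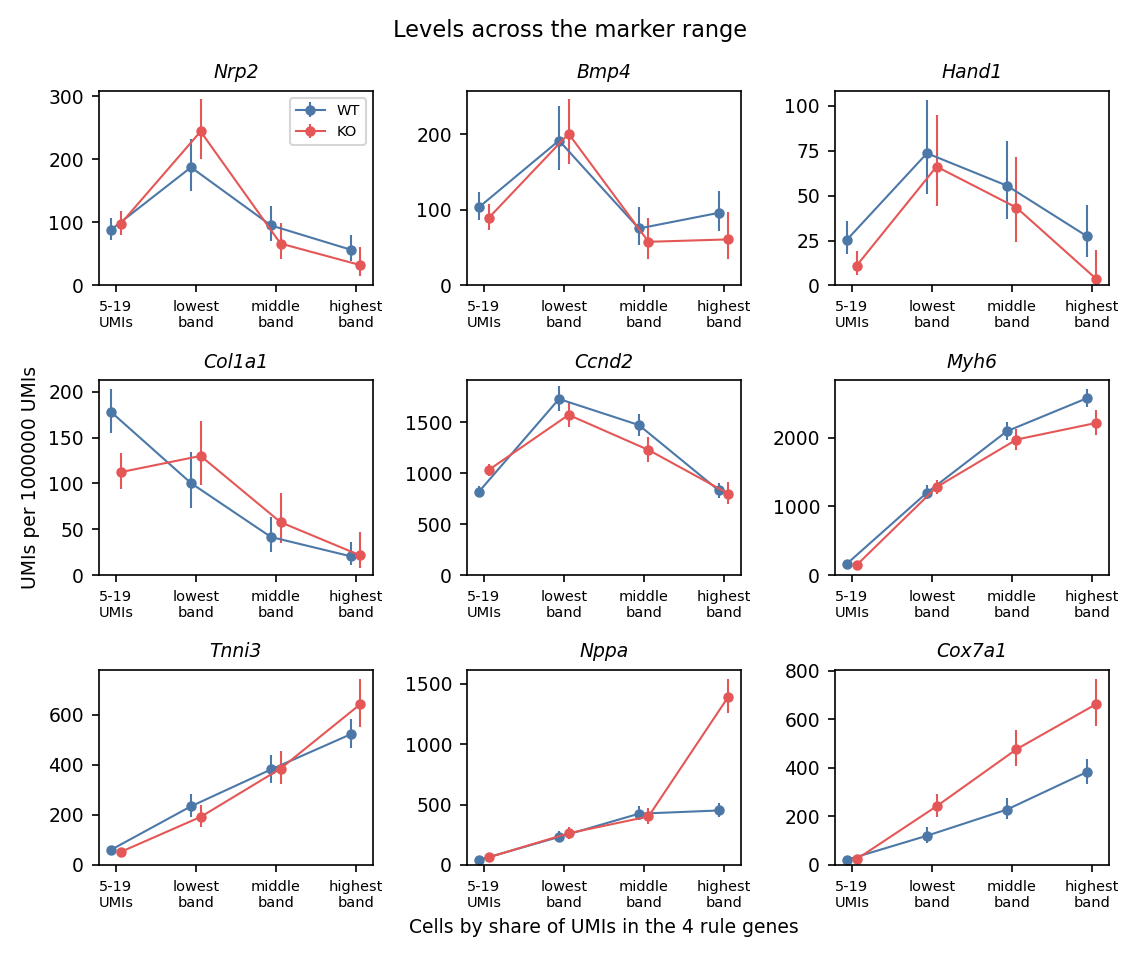
Levels (y axes, CPM, exact Poisson 95% intervals) of 9 genes in cells with 5 to 19 rule-gene UMIs and in the 3 bands of cardiac muscle cells by the share of UMIs in the 4 rule genes (x axes), in WT (blue) and KO (red). Nrp2, Bmp4, Hand1, Col1a1 and Ccnd2 lie lower in the highest than in the lowest band and Myh6, Tnni3, Nppa and Cox7a1 higher; Nppa separates the libraries in the highest band.

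The ratio of KO over WT was read within each band, since the bands were filled differently. Ttn stood at 0.50, 0.43 and 0.37 from the lowest to the highest band, Nexn at 0.60, 0.45 and 0.63, Ankrd1 at 0.69, 0.43 and 0.53 and the respiratory chain sum at 0.34, 0.39 and 0.48. Glycolysis stood at -0.27, -0.36 and -0.26. The intervals of these ratios were off 0 in every band. The thick filament sum did not hold its place, at -0.05 (-0.14 to 0.05), -0.20 (-0.28 to -0.12) and 0.02 (-0.06 to 0.10).

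Nppa and Myl2 differed by band. Nppa was at 232 CPM for WT and 262 for KO in the lowest band (0.18, -0.22 to 0.57), at 424 and 402 in the middle band (-0.08, -0.40 to 0.23) and at 451 and 1394 in the highest (1.63, 1.40 to 1.86). Myl2 went from -0.30 (-0.54 to -0.06) through 0.02 to 0.73 (0.55 to 0.92). The highest band held 88 KO cells, among them all 5 of the KO cells richest in Nppa. Without cells of at least 10 Nppa UMIs, the Nppa ratio in that band was 0.83 (0.45 to 1.21), at 242 and 431 CPM.

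Among single genes with at least 100 UMIs, the highest ratios of KO over WT were those of Dqx1 (1.53), Borcs7 (1.15), Fam111a (1.14), Cmc2 (1.06), Hist1h2ae (1.03), 0610009B22Rik (0.99), Gm42418 (0.99), Trappc10 (0.97), Nppb (0.97) and Slc8a1 (0.97). Dqx1, a DEAQ-box gene, had 83 UMIs in WT and 166 in KO, but 3 WT and 8 KO cells with at least 5 UMIs held 60.2% and 87.3% of them. Without those cells, again a limit set after the values were seen, Dqx1 stood at 21.6 CPM in WT and 20.3 in KO (-0.09, -0.95 to 0.74). Cells of this kind were not limited to heart muscle, since 89 WT and 71 KO other cells held at least 5 UMIs as well. Hist1h2ae (1.73) and Gm42418, which overlaps ribosomal RNA sequence (1.20), were further apart in all other cells than in cardiac muscle. Borcs7, at 73 and 112 UMIs, and Cmc2, at 107 and 154, were spread over many cells.

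The lowest ratios were those of Hba-x (-1.39), Ptk7 (-1.37), Endog (-1.29), Hba-a1 (-1.22), Dimt1 (-1.18), Hbb-y (-1.15), Hba-a2 (-1.13), Ccdc86 (-1.09), Hbb-bh1 (-1.06) and Ddhd1 (-1.06). The 5 globins are the genes the rule limits, and their sum was 3086 CPM for WT and 1328 for KO cardiac muscle cells (-1.22), beside -0.97 in all other cells. Ptk7, a coreceptor of planar cell polarity signalling, had 172 UMIs in WT and 46 in KO, and the ratio in all other cells was -1.25. Endog, a mitochondrial nuclease, had 95 and 27 UMIs (-1.29, -1.96 to -0.66; -0.52 with cells thinned to 1500 UMIs), and Dimt1, an rRNA methyltransferase, 82 and 25 (-1.18, -1.89 to -0.52). In all other cells, Endog (-0.10) and Dimt1 (-0.09) were close to level.

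Prdm6 itself was scarce in these cells. It had 23 UMIs in 22 WT cells and 19 UMIs in 18 KO cells (0.25, -0.70 to 1.20), whereas in all other cells its ratio was -0.91. A 3′ read does not tell a deleted from an intact allele, and the interval in cardiac muscle covers both a lower and a higher level. Of other genes that the study followed, Tagln, an actin-binding protein of smooth and early cardiac muscle, stood at 746 and 792 CPM (0.09, -0.04 to 0.21) and the chromatin remodeller Chd7 at 174 and 258 (0.57, 0.32 to 0.82; 0.26 in all other cells).

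Transcripts that differ by sex were not in the same proportion in both libraries. Among cardiac muscle cells, 166 WT and 150 KO cells held UMIs of Xist but of no Y-linked gene, and 86 and 29 the converse. In all other cells the counts were 1813 and 3274 for Xist and 1581 and 569 for the Y-linked genes. The part of sex in the values above was not tested.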

How the data were processed

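Single-cell RNA libraries of WT and KO E9.5 tissue, 1 per genotype, were sequenced on a droplet platform. The submitters' processing notes name Cell Ranger 1.3.1, Scanpy and the mm10 build, whereas the study's methods name a human reference with ZsGreen1 added. The authors deposited 1 table of genes by cells per library, in which each value is a signal that is never negative: the square root of the UMIs after scaling every cell to the same total. Squared values summed to 1641 in every cell, and dividing them by the smallest of the cell gave whole UMIs for 100% of the values above 0 (within 0.01). Mitochondrial and ribosomal genes and cells with few or very many UMIs had been removed by the authors. Doublets were named as removed with DoubletFinder in the methods, whether before deposit was not said, and no caller was run here.

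Cardiac muscle cells were taken as cells with at least 20 UMIs of Myl7, Myl4, Actc1 and Tnnt2 together and under 5% globin. The members and the gene lists were chosen with earlier results of these data known. UMIs were summed per library and given per 1000000 UMIs (CPM). The study tested cells as replicates. Here the library is the replicate, so levels, shares and ratios carry counting intervals and no test was run. Genes needed at least 50 UMIs over both libraries for counts, and a list gene at least 20 to be given a ratio. Scarcer list genes are named with their UMIs only. The text names the 4 rule genes, the 12 genes highest over other cells by the lower library (10 CPM added to both sides), the 10 highest and 10 lowest ratios of KO over WT among genes of at least 100 UMIs, list genes and Prdm6. Cck, which is in none of these sets, is named as well. Alternatives covered the member rule, scaling (TMM and median of ratios, own code), the UMI minimum, thinning of each cell to 1500 UMIs (seed 11) and left-out cells. Columns of per-sample values not used numbered 0. Coordinates and transcript lengths are from GENCODE vM21 (GRCm38, the same assembly as mm10), and promoters from RefSeq. Python 3.11.15, NumPy 2.4.6, SciPy 1.17.1, pandas 2.3.3 and matplotlib 3.10.9 were used, and the scripts were tested on simulated data.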

Additional observations from a re-analysis of the deposited data

Results flagged for a closer look

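In 11 of 335 named genes with at least 50 UMIs (3.28%, beside 0.804% of all 6964 genes), the ratio of KO over WT had opposite signs in cardiac muscle cells and in all other cells, with both counting intervals off 0. The difference was not tested, because each genotype had 1 library. The shares are also not directly comparable, since the 335 include genes chosen for their level or ratio and intervals are narrower at higher counts. In 6 of them the log2 ratio was above 0 in cardiac muscle cells and below 0 elsewhere: the collagen Col1a1 was at 0.62 and -0.91, the semaphorin Sema3c at 0.55 and -0.31, and 5430431A17Rik at 0.30 and -0.21. For Col1a1, the interval held 0 within each band of cells by marker share (0.37, 0.47 and 0.06), and 5 cells held 32.1% of its UMIs in WT and 33.7% in KO. Cox4i1, a cytochrome oxidase subunit, was at 0.21 and -0.13, the calcium channel subunit Cacna2d2 at 0.20 and -0.22, and Id2, an inhibitor of bHLH factors, at 0.15 and -0.19. The others were below 0 in cardiac muscle cells and above 0 elsewhere. Smc4, a condensin subunit, was at -0.25 and 0.12, the atrial-type myosin Myh6 at -0.20 and 0.10, Hmgb2 at -0.15 and 0.14, the lactate dehydrogenase Ldha at -0.14 and 0.03, and the troponin Tnnt2 at -0.092 and 0.14. Tnnt2 is a gene of the rule, so its level in both sets of cells was shaped by the choice of members. With the TMM factor its interval in cardiac muscle cells held 0, so the count of 11 depends on scaling.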

How the results depend on the processing

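The share of cardiac muscle cells was lower in KO than in WT under each alternative but 1. With a minimum of 10 UMIs it was 6.39% in WT and 4.49% in KO, with 40 UMIs 4.01% and 2.82%, and with cells thinned to 1500 UMIs 7.94% and 4.86%. Leaving Myl7 out of the rule gave 4.72% and 3.18%, leaving out Myl4 4.42% and 3.18%, and leaving out Actc1 4.79% in WT. Without the 10% of members with most UMIs the share was 4.72% in WT, and without members that held at least 3 UMIs of other lineages (the erythroid list and Myl1 not counted) 3.59% and 2.38%. The exception counted the erythroid list and Myl1 too. Because 95.9% of WT and 77.2% of KO members held at least 3 UMIs of the erythroid list, and 402 and 252 members held Myl1, it left 4 WT and 5 KO cells, or 0.0335% and 0.0512%, and the log2 ratio of the shares became 0.61.

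The 11 genes at least 2-fold higher and 60 lower in KO became 24 and 35 with TMM scaling and 24 and 36 with the median of ratios. They became 88 and 258 with at least 20 UMIs per gene, and 689 and 949 with 1 UMI in each library. The number higher was 19 with members of at least 40 UMIs and 18 as a mean over cells. In the 4 WT and 5 KO cells it was 0 higher and 3 lower.

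TMM scaling moved every ratio up by 0.06. It gave a log2 ratio of -0.089 for the thick filament, 0.17 for the thin filament, 0.33 for titin and the Z disc, -0.25 for glycolysis, 0.42 for the respiratory chain, -0.025 for S phase, 0.031 for G2 and mitosis, -0.011 for G1 regulators, -0.077 for smooth muscle and -0.049 for immediate early and heat shock genes. Under it the interval came to hold 0 for calcium and excitation (-0.044), S phase, G1 regulators, ventricular genes, fatty acid and creatine handling (-0.12), neural tube genes (-0.15) and immediate early and heat shock genes, and no longer held 0 for cardiac regulators (0.11) and the BMP pathway (0.12). With the median of ratios, the first 7 of these lists and smooth muscle stood at -0.096, 0.16, 0.33, -0.26, 0.41, -0.033, 0.023 and -0.085. Titin and the Z disc were at 0.22 and smooth muscle at -0.19 without the 10% of members with most UMIs, and titin and the Z disc at 0.23 as a mean over cells. Without members holding at least 3 UMIs of other lineages (the erythroid list and Myl1 not counted), the ventricular list was at -0.0076, Acta1 at -0.060, Smpx at 0.30 and Tnnc1 at 0.23. In the 4 WT and 5 KO cells, the signs turned for titin and the Z disc (-0.26), glycolysis (0.029) and immediate early and heat shock genes (0.24), while the thick filament was at -0.63, the thin filament at 0.021, cardiac regulators at 0.43, the BMP pathway at -0.33, the respiratory chain at 0.51, S phase at -0.16, G2 and mitosis at 0.22 and smooth muscle at -0.44. Among genes, the signs turned there for 5430431A17Rik (-0.82), Ankrd1 (-0.053), Cox5a (-0.47), Gapdh (0.078), Hspa8 (0.025), Id2 (-0.53), Ldha (0.75) and Ttn (-0.053), and for Dqx1 (-0.091) without the cells of at least 5 Dqx1 UMIs.

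Thinning to 1500 UMIs gave shares of cells with a UMI in WT and KO of 46.9% and 43.5% for Myl2, 33.3% and 31.8% for Nr2f2, 59.9% and 61.5% for Myh7, 18.9% and 25.9% for Nppa, 3.41% and 4.12% for Isl1 and 16.2% and 16.5% for Tbx5. With members of at least 40 UMIs, WT shares were 57.2% for Myl2, 26.9% for Nppa and 3.97% for Isl1.

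The alternatives without Myl1 and the erythroid list, without cells of little Myl7, without cells of many Nppa or Dqx1 UMIs, and with thinned ratios were chosen after seeing the data. Unless fewer cells or another scale produced it by construction, the cause of a move was not tested. No paired analysis was possible because each genotype had 1 library. Depth limits the single genes most: lists under 50 UMIs and genes under 20 in an alternative were given no value. The spread between embryos could not be estimated.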

Other observations

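Immediate early and heat shock genes, which respond to dissociation of the tissue, summed to 4425 CPM in WT and 4094 CPM in KO cardiac muscle cells (log2 ratio -0.11, -0.17 to -0.06, and -0.049 with TMM scaling), and the log2 ratio was 0.05 in all other cells. Of 6 genes with at least 50 UMIs, 2 (Hspa8 and Hspb1) had an interval below 0 and 0 above, beside 10.8% and 8.17% of all genes, and Hsp90aa1, at -0.04 (-0.12 to 0.04), held 50.9% of the UMIs. Myl1, a myosin light chain best known from skeletal muscle, stood at 696 CPM (WT) and 877 CPM (KO), a log2 ratio of 0.33.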
